A study of Mus musculus with 4 samples.

Results

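Forkhead (Fox) genes encode transcription factors that share a winged-helix DNA-binding domain and are sorted into lettered classes by sequence. All probes of the arrays whose gene name follows the Fox naming pattern (classes a to r) were taken, which gave 38 genes of 27670 on the array, represented by 54 probes of 41174 and 63 spots per array. Of these, 26 genes were measured, meaning that the brightest probe was well above background in the Cy5 channel of at least 1 array or in the Cy3 channel of at least 2. Foxf1 and Foxo3 carry older names on the array (Foxf1a and Foxo3a).

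The samples were pooled molar tooth germs, the first molar of the mandible, of C57BL/6 mouse embryos. Total RNA of E11, E12, E16 or E18 germs was labelled with Cy5, and each was hybridised with RNA of E14 germs in Cy3, on 4 two-colour arrays. Each of the 4 Cy5 stages is 1 pool, the E14 channel was read 4 times, and the dyes were not swapped. The sources used here do not give the number of germs or litters per pool, nor whether the 4 E14 labellings drew on 1 pool. The E11 and E12 arrays shared 1 slide, and the E16 and E18 arrays shared the other. With 1 pool a stage, a ratio of 1 stage to E14 has no test, and the E14 error is the SD over 4 hybridisations. The one test the design allows is a straight line in embryonic day through the 4 log2 ratios, fitted with limma over all 17403 measured genes, and a slope counts as passed at a Benjamini-Hochberg adjusted p of at most 0.05. A gene-specific dye effect would sit in every ratio to E14, and cannot be told apart from a difference of E14 from all other stages. It cancels in a difference between any pair of the other stages.

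Fox factors act in several tiers of the developing face and tooth. In jaw and palate mesenchyme, Foxf1, Foxf2, Foxd1 and Foxd2 are known to be switched on by hedgehog signals from the epithelium. The FoxO factors are held in the cytoplasm when phosphorylated by AKT downstream of insulin and IGF receptors, and activate stress and metabolic genes when nuclear. The FoxP factors are mostly repressors that bind DNA as dimers, and Foxm1 drives genes of the G2 and M phases of the cell cycle. In the molar, the epithelium first thickens, then forms a bud, a cap around E14 and finally a bell in which the enamel-forming and dentin-forming cells differentiate.

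The germs carried markers of both tooth tissues: 8 of 8 dental epithelium markers and 8 of 8 dental mesenchyme markers were measured. The share of probes well above background was 52.5% to 59.0% in Cy5 and 54.3% to 57.0% in Cy3, with 0 saturated spots. The background-corrected log2 signal of each channel (after loess and between-array scaling of the mean intensity) is called the log2 signal here. Over the measured Fox genes, the SD of the E14 log2 signal over the 4 hybridisations had a median of 0.065, against 0.051 over all measured genes, and its highest value was 0.23, for Foxq1. Foxa2, printed 10 times per array, had an SD of 0.07 to 0.08 log2 units between its spots.

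Detection differed between members. Of the 38 Fox genes, those well above background in Cy5 numbered 20, 23, 24 and 20 at E11, E12, E16 and E18, and 21 were so in E14 on all 4 arrays. Over all probes of the array, the Cy5 shares were 55.2%, 59.0%, 57.8% and 52.5%. These shares count every probe, while each Fox gene was counted by its brightest, so they are not like for like. By the detection rule 26 of 38 Fox genes were measured, beside 17403 of 27670 genes of the whole array. Of the 26 measured genes, 16 (61.5%) were well above background in both channels of all 4 arrays, against 78.4% of all measured genes. These 16 were Foxc1, Foxd1, Foxe1, Foxf1, Foxf2, Foxh1, Foxj2, Foxj3, Foxk2, Foxm1, Foxn2, Foxo1, Foxo6, Foxp1, Foxp4 and Foxq1. Of the 38 genes, 12 were well above background in no channel of any array. They included Foxa1 and Foxa3 (endoderm pioneer factors), Foxb1, Foxb2, Foxd4, Foxi1 (inner ear and kidney), Foxi2, Foxl1 (gut mesenchyme), Foxl2 (ovary), Foxn4 (retina) and Foxp3 (regulatory T cells). For these 12 no ratio is given.

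**Figure D1:**
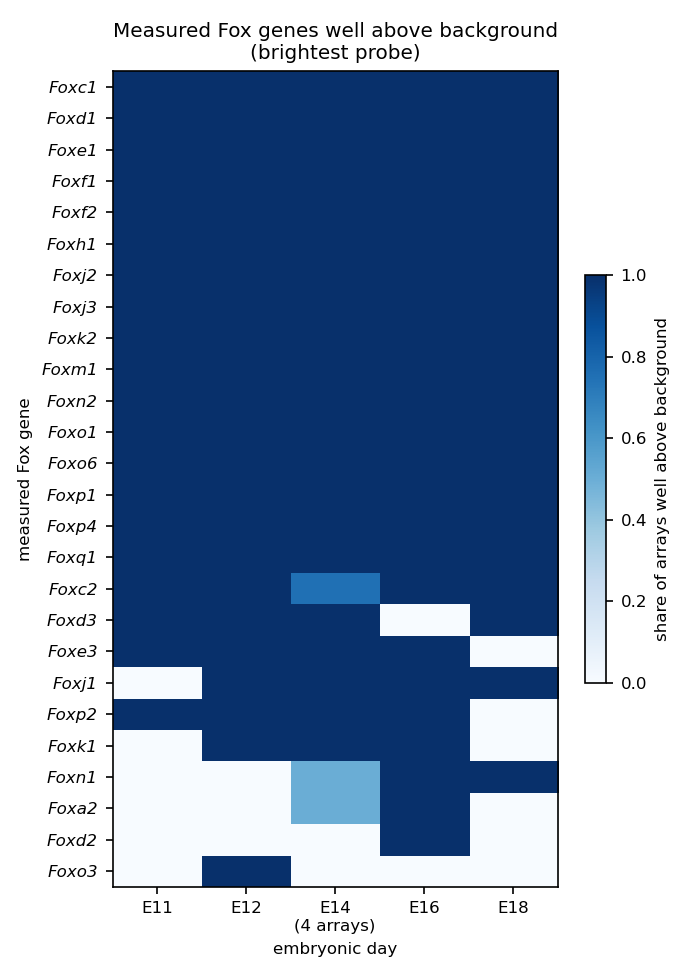
Detection of the 26 measured Fox genes (rows) by stage (columns), as the share of arrays on which the brightest probe was well above background: 1 array for E11, E12, E16 and E18, and 4 for E14. 16 genes are fully dark and 10 are pale or blank at some stage.

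At E11, 6 of 26 measured Fox genes (23.1%) stood at least 2-fold from E14, against 6.46% of all measured genes. Foxc2, Foxd1 and Foxp2 were higher at E11 (3 genes, beside 1.6% of all measured genes higher), and Foxj2, Foxo1 and Foxo6 were lower (3 genes, beside 4.86%). At E12 only Foxo6 was 2-fold from E14 (3.85% of the family, against 2.96% of all genes). At E16 and E18 the count was 0 of 26, where 3.71% and 7.67% of all genes were at least 2-fold from E14. The median log2 ratios of the 26 genes were -0.06, 0.04, -0.04 and -0.15 for E11, E12, E16 and E18, beside medians over all measured genes of -0.02, -0.003, 0.01 and -0.01. Centring each array on its median in place of loess moved the median of all measured genes to 0.40, 0.64, 0.57 and 0.17 on the E11, E12, E16 and E18 arrays. Relative to that shift, the 6 genes kept their direction at E11, with log2 ratios of 1.69 for Foxd1, 1.65 for Foxp2, 1.51 for Foxc2, -0.52 for Foxo1, -0.97 for Foxj2 and -2.01 for Foxo6. Across the 5 stages, with E14 at 0, 10 of the 26 (38.5%) had their highest value at E12, against 17% of all measured genes, and 11 (42.3%) their lowest at E18, against 25.3%. Many of these differences are small and carry no test. Foxo3 was measured only through its E12 reading, so the detection rule itself favoured a highest value there. The E12 log2 ratios of Foxe3 (0.03) and Foxq1 (0.16) were below the SDs of their E14 log2 signals (0.20 and 0.23).

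Between the ends of the series, 5 of 26 Fox genes (19.2%) were at least 2-fold apart at E18 and E11, against 8.45% of all measured genes. Foxo1, Foxo6 and Foxp1 were higher at E18 (beside 5.93% of all genes), and Foxc2 and Foxp2 were lower (beside 2.52%). With E16 set against E12, a comparison that likewise crosses the slides, Foxo6 and Foxp1 were higher by at least 2-fold (2 of 26, 7.69%, against 4.8% of all genes). At E12 over E11, Foxo6 was higher and Foxc2 lower (2 of 26, against 0.971%), and at E18 over E16 the count was 0 of 26 (against 1.37%).

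**Figure D2:**
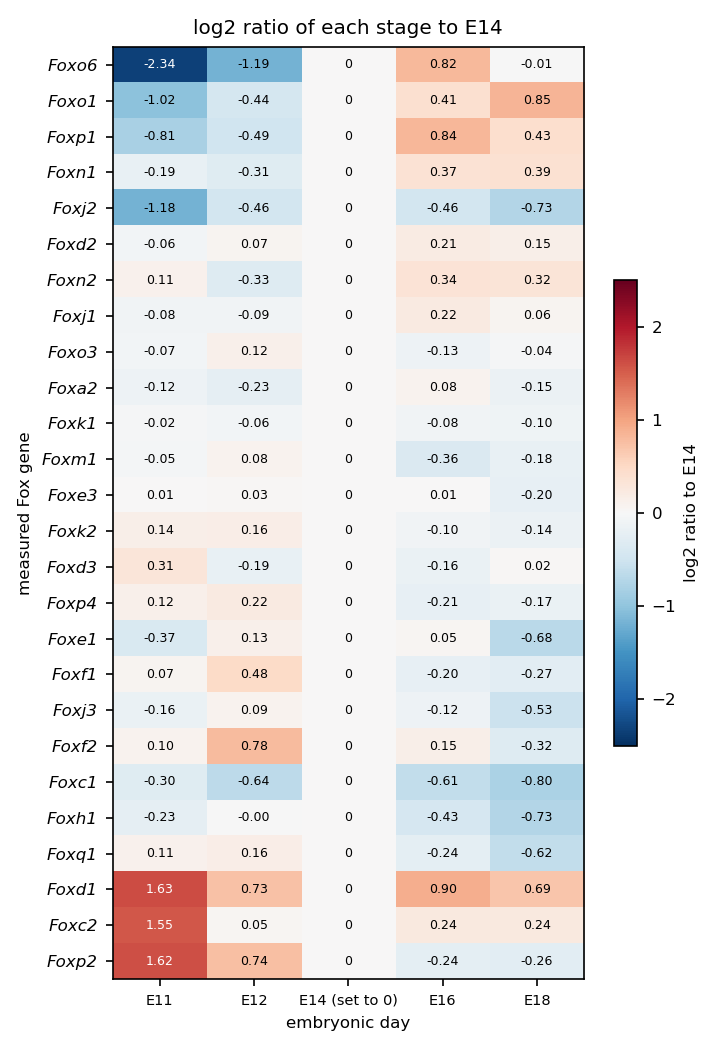
Log2 ratio of each stage to E14 for the 26 measured Fox genes, ordered by the difference of E18 from E11; red is higher and blue lower than E14, which is 0 by construction. The strongest colours are at E11: Foxo6 at -2.34 and Foxd1, Foxp2 and Foxc2 at 1.55 to 1.63.

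In the slope test, 2 Fox genes rose with embryonic day, Foxo1 and Foxn1 (7.69%, against 6.25% of all measured genes), and 1 fell, Foxp2 (3.85%, against 2.64%). The 3 calls together are 11.5% of the family, against 8.88% of all measured genes, so the share of calls was near that of the array. At an unadjusted p of at most 0.05 the counts were 9 of 26 (34.6%), against 27.7%. The slopes of the other 23 ran between -0.12 and 0.36 log2 units per day, and the family median was -0.03, against -0.002 over all genes. With slide as a block, 0 Fox genes and 0 genes of the whole array passed at the adjusted threshold. At an unadjusted p of at most 0.05 that fit called 0 of 26 Fox genes, against 3.3% of all measured genes, on 1 residual degree of freedom.

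**Figure D3:**
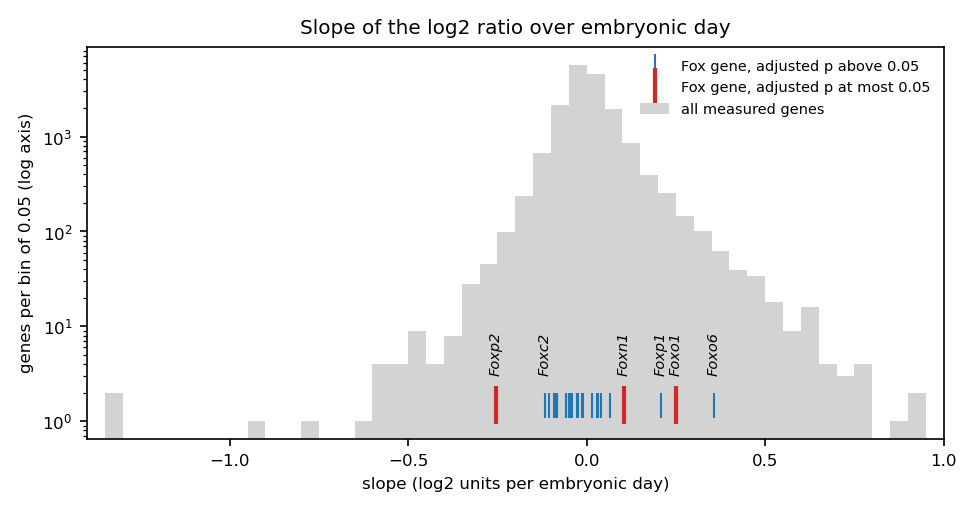
Slopes of the log2 ratio over embryonic day for all 17403 measured genes (grey bars of 0.05 log2 units per day, log axis) and for the 26 measured Fox genes (ticks placed at an arbitrary height; red ticks passed the test). Foxo6 at 0.36 and Foxo1 at 0.25 lie at the right end of the family and Foxp2 at -0.25 at the left.

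Among the FoxO class, Foxo1 rose across the series. Foxo1, a mediator of insulin and IGF signalling, was read by a probe at chr3:52472787-52472846 (mm7, plus strand; its exon or UTR was not analysed here). Its log2 signal was 9.07, 9.70, 10.49 and 10.99 for E11, E12, E16 and E18, against 10.09, 10.13, 10.08 and 10.14 in the E14 channel of the same arrays. The stages followed each other in order, with both early pools below all 4 E14 readings and both late pools above them (with median centring E12 turned to 0.72, or 0.07 relative to the shift of all genes). E11 was 2.03-fold lower than E14, E18 was 1.80-fold higher than E14, and E18 was 3.65-fold higher than E11. The slope was 0.25 ± 0.031 log2 units per day (SE, 4 arrays; limma, adjusted p = 0.0110). A second Foxo1 probe gave log2 ratios of -0.54, 0.00, 0.69 and 1.12 at E11, E12, E16 and E18, with a slope of 0.22 ± 0.032 (limma, adjusted p = 0.0119 over 26114 measured probes).
The call ended without the E11 array (limma, adjusted p = 0.0603), with median centring in place of loess (limma, adjusted p = 0.0634) and with slide as a block, where the slope was 0.29 ± 0.17. The steps within a slide had the same direction as the whole: 0.58 for E12 over E11 and 0.44 for E18 over E16.

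The promoter of Foxo1 is shown because it heads the gene whose rise passed the test on both probes. It runs from 250 bases before to 50 bases after the start in RefSeq (GRCm38.p6, chr3:52268087-52268386, plus strand), and capitals mark CCAAT boxes (CCAAT) and GC boxes (GGGCGG), each searched on both strands.
Foxo1: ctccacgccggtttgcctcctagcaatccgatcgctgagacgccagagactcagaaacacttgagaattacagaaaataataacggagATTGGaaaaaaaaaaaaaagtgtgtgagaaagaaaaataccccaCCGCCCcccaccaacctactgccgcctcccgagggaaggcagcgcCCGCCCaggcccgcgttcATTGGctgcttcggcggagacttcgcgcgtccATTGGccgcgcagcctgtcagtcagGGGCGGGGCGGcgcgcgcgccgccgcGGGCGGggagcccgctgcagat
The window held 3 CCAAT boxes and 5 GC boxes, of which 2 share 1 base, and neither the forkhead core TGTTTAC nor TATAAA on either strand. GC boxes were in 22 of 29 Fox promoters in the RefSeq table (75.9%, for 24 of the 38 genes), against 35.7% of all 32851 promoters of the same length. CCAAT boxes were in 14 of 29 (48.3%, against 37.4%), TATAAA in 3 of 29 (10.3%, against 13.6%), and the forkhead core in 1, that of Foxa1 (3.45%, against 3.65%). The median GC content was 63% in the Fox promoters and 52.7% in all promoters. These matches are letters in a window and were not tied to any level.

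Foxo6, a FoxO factor known for shuttling little and for roles in brain and craniofacial growth, spanned the widest range of the family. Its log2 signal (probe at chr4:119707061-119707120, mm7, minus strand) was 7.46, 8.55, 10.76 and 9.78 at E11, E12, E16 and E18, against 9.80, 9.74, 9.95 and 9.79 in E14. Both early pools lay below all 4 E14 readings, E16 lay above them and E18 lay within them. E11 was 5.05-fold and E12 2.28-fold lower than E14, E16 was 1.76-fold higher than E14, and E18 was 5.01-fold higher than E11. The slope was 0.36 ± 0.091 (limma, adjusted p = 0.0653), and -0.10 with slide as a block. It was 0.28 without the E16 array and 0.59 without E18, and passed in both of these fits. Each of them leaves out an end of the fall from E16 to E18. They also have fewer residual degrees of freedom, and so lean more on the moderation over all genes. Within the slides the log2 difference was 1.15 for E12 over E11 and -0.83 for E18 over E16.

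Foxo3 was well above background only at E12, at 1.09-fold over a dim E14 signal, so its course cannot be followed here. The genes known to be activated by FoxO factors were measured for 16 of 18, of which 3 rose and 0 fell. Pdk4, a brake on pyruvate oxidation, had a slope of 0.21 (limma, adjusted p = 0.0110). Bnip3, a mitophagy receptor, had 0.29 (limma, adjusted p = 0.0313), and Txnip, an inhibitor of thioredoxin, had 0.25 (limma, adjusted p = 0.0289). With slide as a block the slopes of Bnip3 and Txnip turned to -0.09 and -0.05, and that of Pdk4 was 0.09. Bcl6, a repressor, had the steepest slope without passing, 0.34 (limma, adjusted p = 0.0566), and Klf2, a vascular factor, the lowest, -0.20 (limma, adjusted p = 0.0569). The median log2 ratios of the list were -0.11, 0.14, 0.45 and 0.22 at E11, E12, E16 and E18. Of 14 kinases and regulators upstream of FoxO, 14 were measured and 2 rose: Sgk1, a kinase that phosphorylates FoxO (slope 0.23, limma, adjusted p = 0.0354), and Igf1 (slope 0.20, limma, adjusted p = 0.0489).

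**Figure D4:**
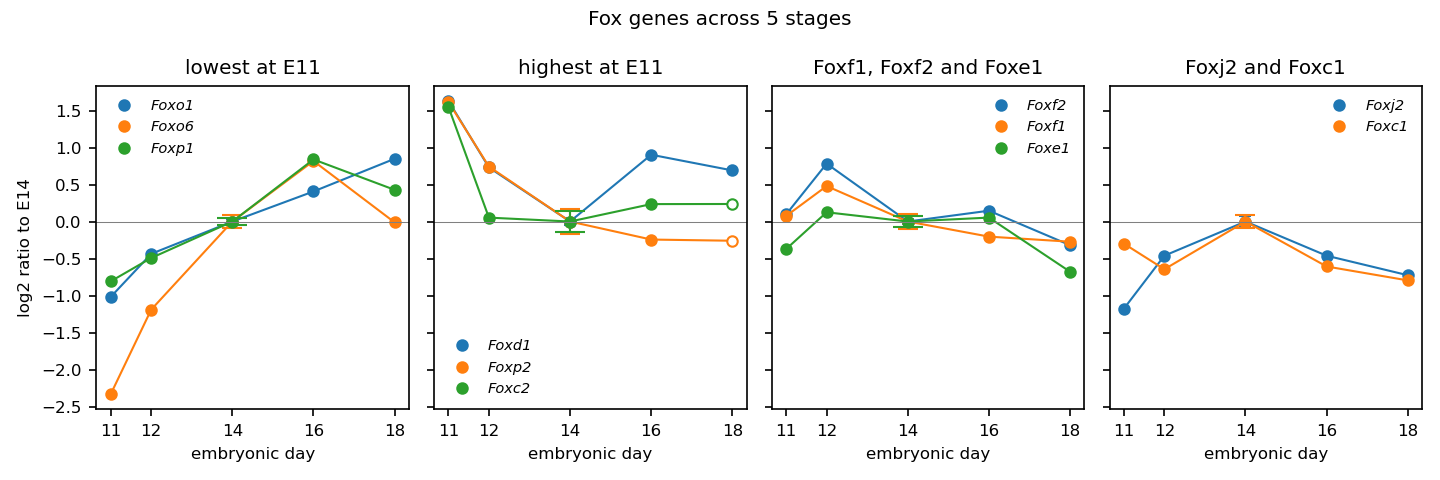
Log2 ratio to E14 over embryonic day for 11 Fox genes in 4 panels; E14 is 0 with the SD of its 4 hybridisations as the bar, and open circles mark a ratio with 1 channel not well above background. Foxo1 climbs at every stage, Foxo6 and Foxp1 peak at E16, Foxd1, Foxp2 and Foxc2 are highest at E11, and Foxf2 and Foxf1 at E12.

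In the FoxP class, Foxp2 fell, and Foxp1 had a positive slope that missed the threshold. Foxp1, a repressor with roles in lymphocytes, heart and epithelia, had a log2 signal of 9.53, 9.80, 11.08 and 10.65 at E11, E12, E16 and E18 (probe at chr6:99015248-99015307, mm7, minus strand), against 10.34, 10.30, 10.24 and 10.22 in E14. The early pools lay below and the late pools above all 4 E14 readings, though with median centring E11 and E12 turned to 0.15 and 0.68, or -0.25 and 0.03 relative to the shift of all genes. E18 was 2.36-fold higher than E11. The slope was 0.21 ± 0.050 (limma, adjusted p = 0.0565), and -0.10 with slide as a block. It passed with an offset of 16 (limma, adjusted p = 0.0490). It also passed without the E16 array (slope 0.17) or without E18 (slope 0.33), fits that each leave out an end of the fall from E16 to E18. The probes of Foxp1 disagreed at E18. A dimmer probe gave -0.90, -0.63, 0.31 and -0.45 at E11, E12, E16 and E18 (slope 0.097 ± 0.055, limma, adjusted p = 0.313), where the brightest gave -0.81, -0.49, 0.84 and 0.43. Another, dim probe stayed between -0.25 and 0.07. All 3 probes were lowest at E11 and highest at E16.

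Foxp2, a repressor known from speech circuits and lung epithelium, fell across the series. Its log2 signal (probe at chr6:15380999-15381058, mm7, plus strand) was 8.23, 7.30, 6.06 and 6.01 at E11, E12, E16 and E18, against 6.61, 6.55, 6.30 and 6.27 in E14. Both early pools lay above all 4 E14 readings and both late pools below them. E11 was 3.07-fold and E12 1.67-fold higher than E14. At E18 Foxp2 was not well above background, so its ratio of 1.20-fold lower than E14 rests on a dim E18 signal. The log2 difference of E18 from E11 was -1.88. The slope was -0.25 ± 0.044 (limma, adjusted p = 0.0248). The call ended without the E11 array (limma, adjusted p = 0.0932), without E12 (limma, adjusted p = 0.0509) and with slide as a block (slope -0.18 ± 0.14), and a stricter filter, which asks for detection in every channel of each array, left the gene out. A second, dim Foxp2 probe gave 0.37 at E11 where the brightest gave 1.62, and its slope of -0.055 ± 0.021 had an adjusted p of 0.158 in limma.

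Foxp4, another FoxP gene detected, stayed close to E14, with log2 ratios of 0.12, 0.22, -0.21 and -0.17 and ratios of 0.11, 0.01, -0.15 and -0.21 on a second probe. Of 10 known FoxP partners and co-regulators, 8 were measured, 0 rose and 1 fell, the orphan receptor Nr2f1 (slope -0.13, limma, adjusted p = 0.0152), which was not well above background at E16 and E18. Its relative Nr2f2 had a slope of -0.22 (limma, adjusted p = 0.0566).

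**Figure D5:**
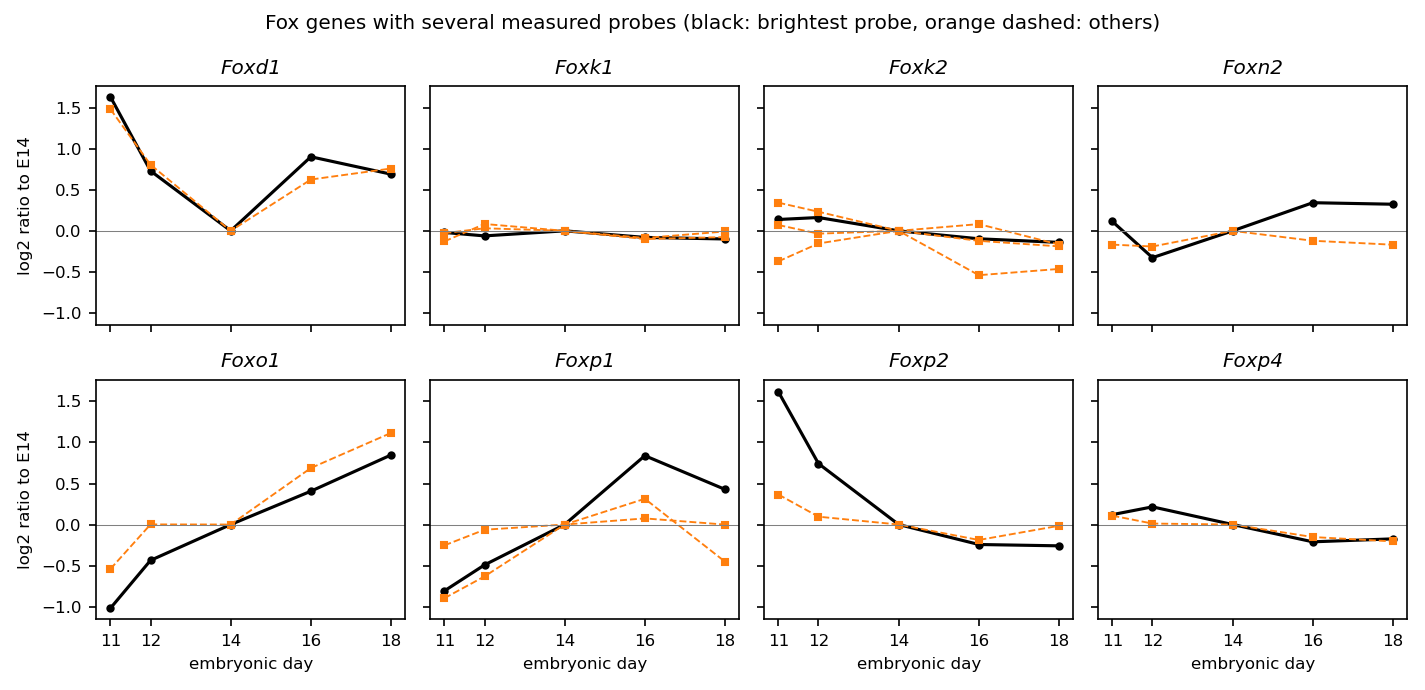
Log2 ratio to E14 over embryonic day for the 8 Fox genes with several measured probes, the brightest in black and the others in orange. The Foxd1, Foxo1 and Foxp4 probes run alike, while the Foxp1 probes part at E18 and the dim Foxp2 probe is flatter.

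The probes of the 8 genes with several measured probes gave 32 pairs of gene and stage. Signs were opposite with both beyond 0.25 log2 units in 2 of the 32, Foxp1 at E18 and Foxk2 at E11 (-0.37 to 0.34 over 4 probes). In 1 of the 32, Foxp2 at E11, probes differed by at least 2-fold. Probes of a gene share their samples and can read different transcript ends, which were not analysed here.

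On their brightest probes Foxo1, Foxo6, Foxp1, Foxn1, Foxn2, Foxj1 and Foxd2 stood lower in both early pools than in both late ones. So did the summed signal of the dental epithelium markers. The share of all measured genes with this order is not given here. The early pools shared 1 slide and the late pools the other. With slide as a block the slopes of Foxo6, Foxp1, Foxn1, Foxn2 and Foxj1 were negative. Of the 8 dental epithelium markers 7 rose and 0 fell, with median log2 ratios of -1.42, -0.58, 1.09 and 0.97 at E11, E12, E16 and E18. With slide as a block Krt17, a keratin and 1 of these 7, turned to a slope of -0.20. Their summed signal was 14929, 31003, 170005 and 120411 at E11, E12, E16 and E18, against 106063 to 127168 in E14. In whole germs, more cells of a type and more RNA per cell cannot be told apart, and the part of the epithelial share in the Fox courses was not tested.

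Foxn1, the factor behind the nude phenotype and a regulator of keratinocyte and thymic epithelial differentiation, rose. Its log2 signal (probe at chr11:78440033-78440092, mm7, minus strand) was 5.90, 5.93, 6.66 and 6.47 at E11, E12, E16 and E18, against 6.09, 6.23, 6.30 and 6.09 in E14. Both early pools lay below all 4 E14 readings and both late pools above them, and it was well above background in Cy5 at E16 and E18 only. In E14 it was well above background on the E12 and E16 arrays only. The E11 ratio, which enters the slope, thus had neither channel well above background. E16 was 1.29-fold higher than E14, E18 was 1.31-fold higher than a dim E14 signal, and the log2 difference of E18 from E11 was 0.58. The slope was 0.10 ± 0.021 (limma, adjusted p = 0.0338). It ended as a call without the E11 array (limma, adjusted p = 0.0970), without E12 (limma, adjusted p = 0.105), with median centring (limma, adjusted p = 0.0606) and without the intensity trend (limma, adjusted p = 0.0793). The slope was -0.01 with slide as a block, and a stricter filter, which asks for detection in every channel of each array, left the gene out.

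Foxe1, required for palate and thyroid, had log2 signals of 6.89, 7.35, 7.26 and 6.41 at E11, E12, E16 and E18, against 7.26, 7.22, 7.20 and 7.09 in E14. E11 and E18 lay below all 4 E14 readings, 1.30-fold and 1.60-fold lower than the E14 channel of their own arrays (slope -0.05, limma, adjusted p = 0.571). Foxq1, known from hair structure, had log2 signals of 7.60, 7.56, 7.48 and 7.30, against 7.49, 7.40, 7.73 and 7.91 in E14. Its E14 readings spread over a wider range than its stages, and its log2 ratio of -0.62 at E18 was taken against the highest of them (slope -0.11 ± 0.030, limma, adjusted p = 0.0808). Neither passed the test.

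Among the Fox genes of the jaw mesenchyme, Foxd1 stood above E14 at all 4 stages. Foxd1, a hedgehog-responsive mesenchymal factor and marker of kidney stroma, had log2 signals of 8.30, 7.39, 7.48 and 7.30 at E11, E12, E16 and E18 (probe at chr13:95426276-95426335, mm7, plus strand), against 6.67, 6.66, 6.58 and 6.61 in E14. No stage overlapped with the E14 readings, and a dye effect on the gene cannot be told apart from this. E11 was 3.10-fold higher than E14, E12 1.66-fold, E16 1.87-fold and E18 1.61-fold. A second probe gave log2 ratios of 1.48, 0.81, 0.63 and 0.76. Without E14, E11 stood apart from the rest, and E18 was 1.92-fold lower than E11. The slope was -0.08 (limma, adjusted p = 0.304). Foxd2, its close relative, was well above background only at E16, at least 1.13-fold over E14.

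The promoter of Foxd1 is shown for this early maximum, and that of Foxf2 for its maximum at E12 described next, with the same marks (RefSeq, GRCm38.p6, plus strand, Foxd1 at chr13:98353995-98354294 and Foxf2 at chr13:31625566-31625865).
Foxd1: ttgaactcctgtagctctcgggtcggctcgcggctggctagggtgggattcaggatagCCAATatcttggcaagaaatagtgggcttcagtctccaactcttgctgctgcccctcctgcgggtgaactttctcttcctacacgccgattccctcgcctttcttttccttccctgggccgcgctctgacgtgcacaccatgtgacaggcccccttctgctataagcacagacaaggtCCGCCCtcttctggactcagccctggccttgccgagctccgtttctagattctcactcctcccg
Foxf2: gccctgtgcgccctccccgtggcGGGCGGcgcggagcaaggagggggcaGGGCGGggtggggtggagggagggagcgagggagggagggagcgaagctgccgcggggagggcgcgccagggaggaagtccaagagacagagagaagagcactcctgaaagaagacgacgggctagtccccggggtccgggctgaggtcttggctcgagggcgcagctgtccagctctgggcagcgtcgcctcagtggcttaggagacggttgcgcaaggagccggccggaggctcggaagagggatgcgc
The Foxd1 window held 1 CCAAT box and 1 GC box at 57.7% GC, and the Foxf2 window 0 CCAAT boxes and 2 GC boxes at 71.3% GC, beside 61.3% GC in that of Foxo1. Neither held TGTTTAC or TATAAA.

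Foxf2 and Foxf1, which act downstream of hedgehog signalling in palate and tongue mesenchyme, both had their highest value at E12. Foxf2 had log2 signals of 9.27, 10.001, 9.34 and 8.83 at E11, E12, E16 and E18 (probe at chr13:30996817-30996876, mm7, plus strand), against 9.18, 9.22, 9.20 and 9.15 in E14. E12 was 1.72-fold higher than E14, E11 and E16 lay just above the E14 readings, and E18 was 1.25-fold lower (with median centring Foxf2 at E18 turned to 0.08 and Foxf1 at E16 to 0.05, or -0.10 and -0.52 relative to the shift of all genes). Foxf1 had log2 signals of 6.69, 7.32, 6.52 and 6.35, against 6.62, 6.84, 6.73 and 6.62 in E14, so that E12 was 1.39-fold higher and E18 1.21-fold lower than E14. The slopes were -0.09 ± 0.050 for Foxf2 (limma, adjusted p = 0.286) and -0.08 ± 0.032 for Foxf1 (limma, adjusted p = 0.164).

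Foxc2, a mesenchymal factor also known from lymphatic vessels, had log2 signals of 7.95, 6.15, 6.39 and 6.34 at E11, E12, E16 and E18, against 6.40, 6.10, 6.16 and 6.10 in E14. E11 was 2.93-fold higher than E14 and above all of its readings, while the other 3 stages lay within them. On the same slide the log2 difference of E12 from E11 was -1.50. Foxc1, its paralogue with roles in skull and eye, had log2 signals of 7.16, 6.90, 6.78 and 6.54, against 7.45, 7.55, 7.39 and 7.33 in E14. Each stage lay below all E14 readings (with median centring E11 turned to 0.10, or -0.30 relative to the shift of all genes), by 1.23-fold, 1.56-fold, 1.52-fold and 1.74-fold at E11, E12, E16 and E18 (slope -0.05, limma, adjusted p = 0.324). As for Foxd1, a dye effect on Foxc1 cannot be told apart from a difference of E14 from all stages. Of the dental mesenchyme markers 5 of 8 fell and 0 rose. Their summed signal was 35213, 47370, 44345 and 20650 at E11, E12, E16 and E18, against 74391 to 80698 in E14. Their median log2 ratios were -0.34, -0.03, -0.88 and -2.30. Single markers differed: Col1a1, Col1a2, Msx1 and Vim lay below E14 at every stage. Lhx8, Pdgfra, Pax9 and Prrx1 lay above it at E11 (1.05, 0.38, 0.11 and 0.006). The part of the mesenchyme in the courses of Foxc1 and the other mesenchymal members was not tested.

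Several of these genes are neighbours on the chromosome. On chromosome 13 Foxq1, Foxf2 and Foxc1 follow one another with no coding gene between them, their probes lying 71.3 and 178 kb apart (mm7). On chromosome 8 the probes of Foxf1 and Foxc2 lie 32.0 kb apart with Mthfsd between, and Foxl1 follows Foxc2 at 9.90 kb. Gene order is from RefSeq (GRCm38.p6). By their ratios to E14, Foxq1 and Foxf2 were both highest at E12, Foxc1 was highest in E14, and all 3 were lowest at E18. A lowest value at E18 was shared by 11 of the 26 measured Fox genes (42.3%, against 25.3% of all measured genes). The Foxq1 log2 ratio at E12 (0.16) was close to that at E11 (0.11) and below the SD of its E14 log2 signal (0.23). Its E18 ratio was taken against the highest of its E14 readings. On chromosome 8 Foxc2 was highest at E11 and Foxf1 at E12, and Foxl1 was in no channel well above background.

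Markers of other tissues were mixed at E11, where Foxd1, Foxc2 and Foxp2 stood high. The log2 ratios of the cartilage markers at E11 lay between -1.22 for Col11a1 and 1.66 for Col2a1, with a median of 1.16. Those of the neural crest and Schwann cell markers lay between -2.65 for S100b and 1.77 for Fabp7, with a median of 0.002. The neuron markers lay between -0.57 for Tubb3 and 1.72 for Nefl (median -0.03), and the multiciliated cell markers between -0.11 for Dnaic1 and 1.77 for Tekt1 (median -0.01). Of 8 cartilage markers 5 were measured (not Comp, Matn1 and Snorc) and 1, Col2a1, fell, with summed signals of 4085, 3618, 2699 and 2409 at E11, E12, E16 and E18, against 2937 to 3162 in E14. Of 8 neural crest and Schwann cell markers 6 were measured and 1, S100b, rose (slope -0.03 with slide as a block), with sums of 1304, 900.0, 1681 and 1421, against 1474 to 1518 in E14, and Cdh19 was among those not measured. Of 8 neuron markers 7 were measured (not Elavl3) and 2 rose, with sums of 1374, 1116, 1521 and 1870, against 1282 to 1424 in E14. Of 8 skeletal muscle markers 5 were measured, 0 rose and 0 fell, with sums of 631, 479, 552 and 536, against 600 to 620 in E14, and Myod1, Myf5 and Des were not measured. Of 8 endothelial markers 8 were measured, 0 rose and 0 fell, with sums of 2867, 2401, 2004 and 2054, against 2992 to 3214 in E14. Of 8 leukocyte markers 8 were measured and 1 rose, with sums of 1435, 1029, 3370 and 2727, against 2262 to 2315 in E14. Of 8 markers of foregut and thyroid endoderm, the home of Foxa2 and Foxe1, 3 were measured, 0 rose and 0 fell, and the thyroid factors Nkx2-1 and Pax8 were not measured. The part of these tissues in the Fox values was not tested.

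Of 13 hedgehog pathway genes, 13 were measured, 3 rose and 1 fell. Shh, the ligand of the dental epithelium, had a slope of 0.73 (limma, adjusted p = 0.00553). Its receptor Ptch1 had 0.14 (limma, adjusted p = 0.0176), and the ligand-binding inhibitor Hhip had 0.13 (limma, adjusted p = 0.0109). Osr2, a zinc-finger factor of the jaw mesenchyme and not a part of the signalling cascade, fell (slope -0.24, limma, adjusted p = 0.0481). Gli1, a direct target chosen after its values were seen, had log2 ratios of -0.57, 0.07, -0.06 and -0.50, and was highest at E12 among the 4 Cy5 stages, as were Foxf1 and Foxf2. The slopes of Gli3 and Gli2 were -0.14 (limma, adjusted p = 0.0706) and -0.13 (limma, adjusted p = 0.119).

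No probe under the naming rule was named Foxi3, the Fox factor known to act downstream of ectodysplasin and activin in teeth. Of 11 genes of those pathways 11 were measured, 2 rose and 1 fell. Tnfrsf19 had a slope of 0.40 (limma, adjusted p = 0.00614) and the adaptor Edaradd 0.18 (limma, adjusted p = 0.0139), and the activin receptor Acvr2b fell (slope -0.24, limma, adjusted p = 0.0170). The receptor Edar had a slope of 0.25 (limma, adjusted p = 0.0546).

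Foxj2, a broadly expressed activator, was at least 2-fold lower than E14 at E11, as were Foxo1 and Foxo6. Its log2 signal was 7.49, 8.35, 8.17 and 8.01 at E11, E12, E16 and E18 (probe at chr6:122882120-122882179, mm7, plus strand), against 8.67, 8.81, 8.63 and 8.74 in E14. All stages lay below the E14 readings, E11 by 2.27-fold and E18 by 1.65-fold, but with median centring E12 and E16 turned to 0.49 and 0.32, or -0.15 and -0.26 relative to the shift of all genes (slope 0.04 ± 0.048, limma, adjusted p = 0.612). Its relative Foxj3 had log2 ratios of -0.16, 0.09, -0.12 and -0.53. With median centring Foxj3 at E11 and E16 turned to 0.76 and 0.78, or 0.35 and 0.20 relative to the shift of all genes. Foxj1, the switch for motile cilia, was dim, stayed within 0.22 log2 units of E14 and was not well above background at E11. Of 10 multiciliated cell markers 4 were measured, with sums of 1160, 806, 478 and 471, against 490 to 533 in E14, and Tekt1 fell (slope -0.25, limma, adjusted p = 0.0194).

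Foxm1, the cell-cycle member, had log2 signals of 9.01, 9.23, 8.65 and 8.86 at E11, E12, E16 and E18, against 9.06, 9.15, 9.01 and 9.04 in E14. It was lowest at E16, 1.29-fold lower than E14 (slope -0.04 ± 0.032, limma, adjusted p = 0.459). Of 18 genes known to be activated by Foxm1, 18 were measured, 0 rose and 2 fell: the mitotic kinase Aurka (slope -0.16, limma, adjusted p = 0.0230) and the anaphase activator Cdc20 (slope -0.15, limma, adjusted p = 0.0279). The median log2 ratios of the list were 0.52, 0.33, -0.13 and 0.09. At E11 Foxm1 itself was at -0.05, a sign that turned with the scanner's ratios and with median centring (0.75, or 0.35 relative to the shift of all genes). With median centring its E16 and E18 ratios turned to 0.47 and 0.22, or -0.11 and 0.04 relative to that shift. Foxh1, the partner of SMADs in nodal and activin signalling, had log2 ratios of -0.23, -0.00, -0.43 and -0.73 (slope -0.08, limma, adjusted p = 0.164). With median centring its E11, E12 and E16 ratios turned to 0.59, 1.04 and 0.43, or 0.19, 0.40 and -0.15 relative to the shift of all genes.

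The remaining measured members stayed within 0.34 log2 units of E14 on their brightest probe. The offset in the background correction draws ratios of dim genes towards 0, and Foxa2, Foxd3, Foxe3 and Foxk1 were dim, so small values need not mean a steady level. Foxk2 and Foxk1, repressors that also bind metabolic genes, had log2 ratios of -0.14 to 0.16 and -0.10 to -0.02, while a dimmer Foxk2 probe gave -0.54 at E16 and -0.46 at E18. Foxn2 had 0.11, -0.33, 0.34 and 0.32, but its second probe was below E14 at every stage. Foxd3, a specifier of neural crest, had 0.31 at E11 (1.39 with the scanner's ratios) and was not well above background at E16. Foxe3, a lens factor, had a log2 ratio of -0.20 at E18, where it was not well above background. Foxa2, a factor of floor plate and endoderm, had -0.12, -0.23, 0.08 and -0.15, and was well above background in Cy5 at E16 and in 2 of the 4 E14 readings. With the scanner's ratios Foxa2 had -1.42, -2.34, 0.60 and -1.67 at E11, E12, E16 and E18.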

How the data were processed

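Pooled mouse molar germs were measured on 4 two-colour arrays. Per the file headers, the authors' scanner files come from Agilent Feature Extraction 10.5.1.1 (build mm7) and hold linear intensity values of each spot, with mean signal, median background and flags. The deposited LogRatio column and series value table hold log10 ratios of Cy5 over Cy3 (100% of values matched, column medians 0). The submitters' processing notes name Agilent Feature Extraction.

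The deposited intensity values were turned into log2 ratios in R 4.3.3 with limma 3.58.1: normexp background correction (offset 50), loess within arrays with control spots at weight 0, outlier-flagged spots (92 to 126 per array) left out, and spots of a probe averaged. The offset draws ratios of dim genes towards 0. Channel values were scaled between arrays with Aquantile. A gene takes its brightest probe. RefSeq gave the gene of 22951 of 41174 probes through their accession, of 6659 through the symbol and of 3109 through a synonym. The array's own name was used for 8455. Where 1 channel was not well above background, the bright channel was divided by the dim channel's own signal. If higher, the lowest signal of any probe well above background was used instead, and only then is the fold a bound ("at least"). With the dim channel's own signal the fold is a plain ratio and no bound. Such folds are open to dye bias.

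Counts of ratios at least 2-fold from E14 (log2 of at least 1) carry no test. Slopes on embryonic day were fitted with limma's lmFit and eBayes (intensity trend, two-sided, 2 residual degrees of freedom) and adjusted by Benjamini-Hochberg over 17403 genes. P-values weigh the slope against the departures of 4 single-pool ratios from a straight line, moderated over all genes. They do not measure variation between pools of a stage, and a bend in the course counts as error. The slope step was tested on simulated data. Alternatives were no background correction, an offset of 16, the scanner software's ratios, median centring, the median over probes, other filters, slide as a block, moderation without trend, and leaving out each array. Other probes of a gene were fitted as an alternative chosen after seeing the data.

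The members and the 6 pathway and 10 marker lists were chosen with earlier results of these data known, and their counts are descriptions. Named genes are all members, up to 3 genes at each end of a list by slope, and cell type markers, and a few of these are not reported here. Genes behind a count of 5 or fewer, and Gli1, were named after their values were seen. No genome was used here, so exons and UTRs under the probes were not analysed.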

Additional observations from a re-analysis of the deposited data

How the results depend on the processing

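No paired analysis was possible because each stage is 1 pool and the labels carry no shared replicate numbers. Of 2 rising Fox genes, 0 passed with median centring, 1 among probes well above background in both channels on all arrays, 0 with slide as a block, 1 without the intensity trend, and 0 to 4 when 1 array was left out (0 without E11, 1 without E12, 4 without E16 or E18). The 1 falling gene became 0 with the stricter detection filter, 0 with slide as a block, and 0 to 2 when 1 array was left out (0 without E11 or E12). Those leave-out fits called 201, 331, 2386 and 1996 genes of the array without E11, E12, E16 and E18, against 1546 with all 4, and the slide fit called 0. Slide as a block turned the sign of 10 of 26 Fox slopes, against 39.5% of all measured genes: Foxn1 to -0.014, Foxo6 to -0.10, Foxp1 to -0.10, Foxa2 to -0.11, Foxj1 to -0.06, Foxn2 to -0.10, Foxf1 to 0.05, Foxm1 to 0.10, Foxo3 to 0.08 and Foxp4 to 0.03. The 6 genes 2-fold from E14 at E11 became 10 with the scanner software's ratios, 5 with median centring, 4 with the median over probes and 4 with the stricter filter. At E12 the count of 1 became 2 without background correction, 3 with an offset of 16, 5 with the scanner's ratios and 7 with median centring. At E16 the count of 0 became 1 without background correction, 1 with an offset of 16, 5 with the scanner's ratios and 5 with median centring. At E18 the count of 0 became 3 with an offset of 16, 6 with the scanner's ratios and 1 with median centring. Between E18 and E11 the count of 5 became 14 with the scanner's ratios and 3 with the stricter filter, which left 16 of 26 genes. The share of all measured genes at least 2-fold under each of these settings is not given here. A change in these counts thus cannot be told apart from a change over the whole array. Median centring moved the median of all measured genes to 0.40, 0.64, 0.57 and 0.17 at E11, E12, E16 and E18. The 7 ratios at least 2-fold from E14 kept their sign in 5 of 5 alternatives. They stayed at least 2-fold in 3 of 5 for Foxo1 at E11, in 4 of 5 for Foxj2 and Foxp2 at E11 and Foxo6 at E12, and in 5 of 5 for Foxc2, Foxd1 and Foxo6 at E11. Foxc2, Foxj2 and Foxo6 have 1 probe each, so for them the median over probes is the main value and had to match it. The values nearest to 0 were -0.12 for Foxo1 at E11 and -0.14 for Foxo6 at E12, both with median centring. The stricter filter tests fewer genes, and the leave-out fits use fewer arrays and have fewer residual degrees of freedom. For the other alternatives the cause was not tested. Dim probes limit the depth: the median mean signal was 51.5 to 71.7 in Cy5 over a background of 31.0 to 33.5, and 39.8 to 44.0 in Cy3 over 15.0 to 17.0.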

Other observations

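Other genes now known by Fox symbols stand on the array under older names and fall outside the naming pattern. Foxs1, a factor of vessel-associated cells listed on the array as Fkhl18, was well above background in both channels of all arrays. Its log2 ratios to E14 were -0.65, -0.67, -0.44 and -0.46 for E11, E12, E16 and E18, so each stage lay below E14. Foxn3, a checkpoint repressor listed as Ches1, had probes that disagreed. One gave -0.93, -0.55, -0.91 and -1.32 at E11, E12, E16 and E18, and another gave -0.09, -0.03, -0.45 and -0.49. The third Foxn3 probe gave -0.26, 0.11, 0.17 and 0.11, so at E18 the probes lay on both sides of E14. Foxo4, listed as Mllt7, was well above background only at E11, at 1.11-fold over a dim E14 signal.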
